A study of Mus musculus with 14 samples.

Results

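Populations of mouse bone marrow, labelled HSC and CLP, were compared by RNA sequencing. HSC stands for hematopoietic stem cell and CLP for common lymphoid progenitor. Of the 49583 genes in the deposited table, 13692 had at least 1 FPKM (fragments per kilobase of exon, a level corrected for gene length and depth) in either column, and these are the genes described here. The study had 14 mouse samples in 7 groups of 2, and the 4 samples behind these columns came from the bone marrow of wild type C57BL/6 mice. By the labels, HSC were sorted as c-Kit+ Sca-1+ Lin- cells and CLP as c-Kit+ Sca-1+ IL-7R+ Lin- cells, so that IL-7R is the antigen by which the gates differ. The labels state a purity above 98% for sorted cells, and give no age of the mice. They do not say whether separate animals were used for each sample. Another column, CD45+ Ter-119- cells from the spleen of tumor-bearing mice, serves below as a level of reference and is called the spleen control.

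Hematopoietic stem cells renew themselves and give rise to all blood lineages, and they transcribe low levels of genes of several lineages before committing to one. Common lymphoid progenitors have largely left the myeloid and erythroid fates. They respond to interleukin 7 and begin to transcribe the recombination enzymes that assemble antigen receptor genes, and those that go on to the B lineage come under the control of the transcription factors Ebf1 and Pax5.

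Each column is the authors' mean of 2 samples, so the differences below have no replicate check and no p-value. The measure is log2(HSC + 1) minus log2(CLP + 1), here called the log2 difference, which understates the difference of genes with low levels. A gene counts as higher in a column where it is at least 2-fold higher on that scale. Depth was estimated from the commonest step of the low values within a preset range and the commonest step just above it. If each is worth 1 fragment, the libraries held 16700000 and 16200000 fragments in HSC and 12600000 and 12300000 in CLP. These steps rested on 75 and 21 genes in HSC and on 19 and 10 in CLP, so the depths are rough. Most values are not whole multiples of a step, so counts were not recovered.

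The markers went partly against the labels. Among the markers of stem cells, Hlf, Gata2, Meis1, Procr, Esam, Fgd5 and Tek reached 1 FPKM in HSC, while Mecom stood at 0.973 and Slamf1, the receptor CD150, at 0.331. Procr, the endothelial protein C receptor and a surface marker of stem cells, was 2.09 FPKM in HSC and listed at 0 in CLP. In the same HSC column the B cell receptor component Cd79a stood at 194 FPKM, the neutrophil alarmin S100a9 at 5728 and the basophil protease Mcpt8 at 539. The HSC column thus holds transcripts of several maturing lineages far above those of these stem cell markers. Such transcripts were in the CLP column too, with S100a9 at 7171 FPKM and Cd79a at 212. Both columns are called by their labels only. All 10 CLP markers were found in both columns, among them Dntt at 416 and 773 FPKM. Fewer cells of a type and less RNA per cell cannot be told apart in such bulk samples. The T cell receptor component Cd3e was 0.138 in HSC and 0.279 in CLP against 24.8 in the spleen control, and other T cell genes were above 1 FPKM, such as Trbc2 at 6.98 and 9.43 against 359.9.

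The columns were alike for most genes. A difference of at least 2-fold was seen in 759 of 13692 genes (5.54%), with 423 higher in HSC (3.09%) and 336 in CLP (2.45%). At 4-fold these were 46 (0.336%) and 23 (0.168%). The median log2 difference was -0.04, and 90% of genes lay between -0.77 and 0.81. Across genes, which are not independent replicates, Pearson's r was 0.956 between HSC and CLP and 0.833 between HSC and the spleen control. The shares depended on gene type. Among 10794 protein-coding genes 207 were higher in HSC (1.92%) and 120 in CLP (1.11%), with a median of -0.03. A 2-fold difference was seen in 43.6% of 163 immunoglobulin variable genes and 40.4% of 171 snoRNA genes. Most lists below hold protein-coding genes and are to be read against the protein-coding shares and median.

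**Figure D1:**
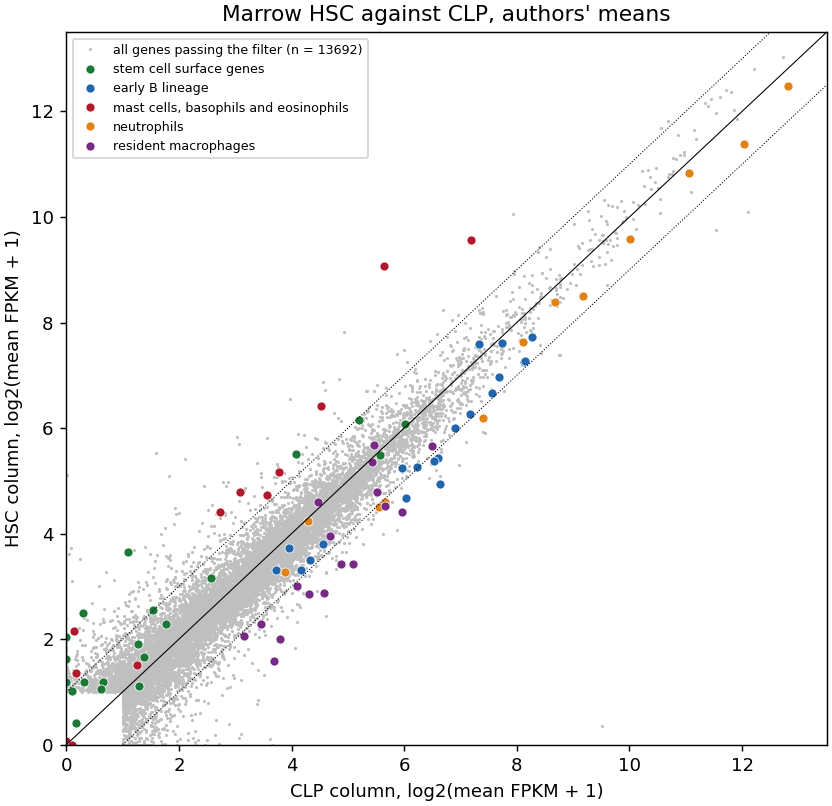
Mean FPKM of each of the 13692 genes in CLP (horizontal axis) and HSC (vertical axis), both as log2(FPKM + 1), with 1 authors' mean per gene and column. The 423 genes at least 2-fold higher in HSC and the 336 higher in CLP lie outside the band around the diagonal in which most genes fall.

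The sorting antigens came first as a check on the gates, and since they were used in the sort their differences are no finding. Kit, the stem cell factor receptor (ENSMUSG00000005672, mm10 chromosome 5, 75574916 to 75656722), was 22.3 FPKM in HSC and 9.82 in CLP. Ly6a, which encodes Sca-1, was 32.5 and 15.1. Il7r, the interleukin 7 receptor (chromosome 15, 9505788 to 9530176), was 55.0 FPKM in CLP and 30.4 in HSC, whose gate does not use it. The gate antigen of CLP was thus present in both columns, with a log2 difference of -0.84. Of 9 lineage antigens, Ptprc was not analysed here, 6 of the other 8 passed 1 FPKM and none differed by 2-fold. The myeloid integrin Itgam was 23.9 FPKM in HSC and 16.1 in CLP, and the neutrophil antigen Ly6g was 17.8 and 18.5.

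Stem cell genes that differed by 2-fold were higher in HSC. Of 20 stem cell surface genes, 7 were at least 2-fold higher in HSC and none in CLP. Of these 7, Procr, Esam, Pdzk1ip1 and Tie1 passed the filter of 1 FPKM through HSC alone, the column where they are high, so the median of 0.88 over the 19 that passed is no separate support. Among the 11 surface genes with at least 1 FPKM in both columns, 3 were higher in HSC and the median was 0.58. With a pseudocount of 5 the count was 2 and the median over the 19 was 0.27. Tie1, a receptor of the angiopoietin system (ENSMUSG00000033191, chromosome 4, 118471191 to 118490061), was 4.63 FPKM in HSC and 0.227 in CLP, a ratio of 20.4. Cd34, a sialomucin of progenitors, was 44.4 and 15.9. Esam, an adhesion molecule of stem cells and endothelium, was 1.29 FPKM in HSC and Pdzk1ip1, a membrane protein enriched in stem cells, was 3.14, and both were listed at 0 in CLP. The adhesion molecule Alcam was 4.90 and 1.90. Others were level, such as the tetraspanin Cd81 at 44.0 and 46.4 FPKM and Cd48, which marks progenitors past the stem cell stage, at 66.4 and 63.6.

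Among 24 transcription factors of stem cells, 20 passed 1 FPKM, 5 were higher in HSC and none in CLP, with a median of 0.70. The 19 with at least 1 FPKM in both columns included all 5 and had a median of 0.65, and with a pseudocount of 5 the count was 1. Hlf, a PAR bZIP factor that marks stem cells (chromosome 11, 90336536 to 90390895), was 7.45 FPKM in HSC and 1.42 in CLP. Tal1 and Lmo2, partners in one DNA-binding complex, were 9.92 against 3.19 and 54.7 against 21. Gata2, which acts in stem cells and also in mast cells and basophils, was 25.4 and 10.8, and the homeobox gene Nkx2-3 was 4.01 and 1.28. Erg, an ETS factor of stem and lymphoid progenitors, ran the other way at 39.8 and 54.2, short of 2-fold. Myb stood at 44.3 and 45.8 and Runx1 at 12.8 and 10.5. Of 16 Hox genes, 6 passed 1 FPKM: Hoxa9, a homeobox gene of early progenitors, was 5.91 in HSC and 2.28 in CLP, Hoxa5 was 3.12 and 1.14, and Hoxa7 was 9.66 and 14.6.

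**Figure D2:**
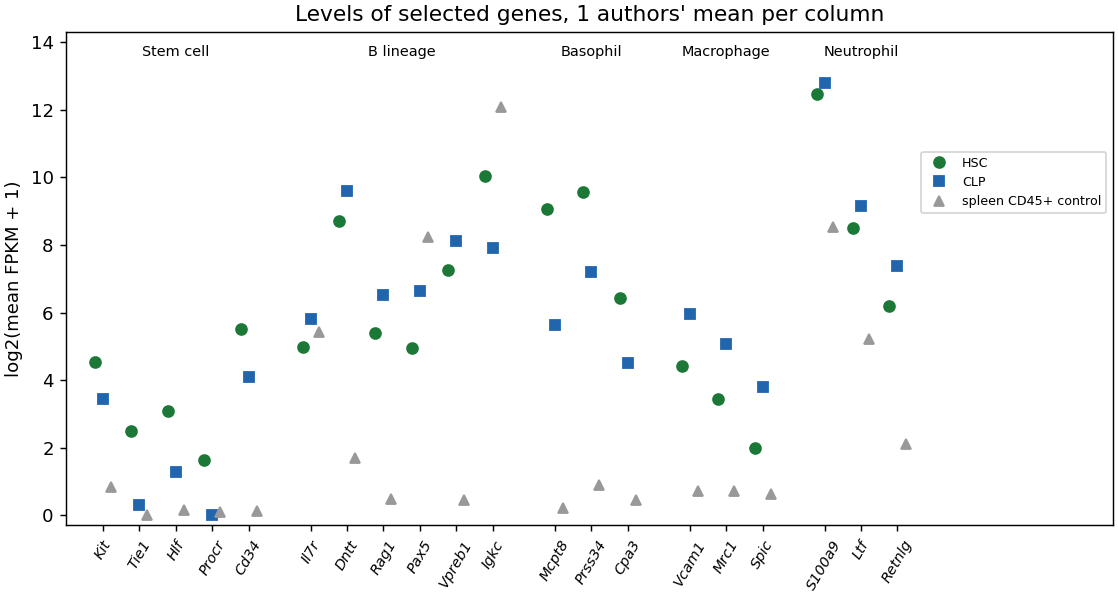
Levels of 20 genes in the HSC, CLP and spleen control columns as log2(mean FPKM + 1), each point 1 authors' mean of 2 samples with no error bar. Tie1, Hlf and Procr stand higher in HSC, Dntt, Rag1 and Pax5 in CLP, and the basophil protease Mcpt8 at 539 FPKM in HSC and 49.0 in CLP.

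Genes of the megakaryocyte and erythroid lineages were higher in HSC where they differed. Of 20, 15 passed 1 FPKM, 6 were at least 2-fold higher in HSC and none in CLP, with a median of 0.76. Of these 6, Gata1 passed the filter through HSC alone. With a pseudocount of 5 the count was 1 and the median 0.28, and none of the 5 genes named next kept a 2-fold difference. Among these were Itga2b, the platelet integrin CD41 (10.9 and 3.46 FPKM), the nuclear protein hemogen, Hemgn (4.47 and 1.34), the platelet chemokine Pf4 (3.84 and 1.30), the platelet factor Nfe2 (17.5 and 7.92) and the lineage factor Gata1 (3.0 and 0.967). The erythroid factor Klf1 was under 1 FPKM in both columns, at 0.666 and 0.770. Zfpm1, the Gata1 cofactor FOG-1, was 15.6 in HSC and 25.8 in CLP.

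Myeloid genes were present in both columns at high levels. Of 22 myeloid priming genes, all 22 passed 1 FPKM, 3 were at least 2-fold higher in HSC and none in CLP, with a median of 0.66. Cebpb, a factor of emergency granulopoiesis and monocytes (log2 difference 1.78), was 58.4 FPKM in HSC and 16.3 in CLP. The glutathione transferase Gstm1 was 39.5 and 17.1, and the granule protein Nkg7, also a gene of NK cells, was 68.8 and 28.5. Mpo, the myeloperoxidase of granulocyte progenitors, was 340.0 and 234, and Elane, neutrophil elastase, was 177 and 132, both short of 2-fold. Of 22 cytokine receptors, 20 passed 1 FPKM and 2 were higher in HSC, among them Kit. The interleukin 6 receptor Il6ra, at 16.4 and 7.73, lay just short of 2-fold with a log2 difference of 0.99.

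Lymphoid priming genes did not separate the columns as a group. Of 26 genes, all 26 passed 1 FPKM, 2 were higher in HSC and 1 in CLP, with a median of -0.09, near that of all genes. Flt3, the cytokine receptor of lymphoid-primed progenitors, was 55.0 FPKM in HSC and 41.5 in CLP. Ikzf1, the Ikaros factor, was 28.0 and 32.0, Satb1 8.93 and 9.41, and Notch1 16.8 and 15. Foxo1, which drives Il7r and Rag transcription, was 31.4 in CLP and 13.1 in HSC, a log2 difference of -1.20. Ikzf2, the Helios factor, was 2.51 in HSC and 0.589 in CLP, and Lsp1, a leukocyte actin-binding protein, was 44.6 and 19.6.

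Genes of the early B lineage leaned toward CLP. All 20 passed 1 FPKM, 19 of 20 lay below 0, 4 were at least 2-fold higher in CLP and none in HSC, with a median of -0.86. Pax5, the factor that commits cells to the B lineage (ENSMUSG00000014030, chromosome 4, 44524757 to 44710487), was 97.9 FPKM in CLP and 29.9 in HSC, a ratio of 3.27, against 299 in the spleen control. Ebf1, which precedes it (chromosome 11, 44617317 to 45008091), was 64.5 and 24.6. Rag1, a subunit of the recombinase (chromosome 2, 101638282 to 101649501), was 91.4 and 40.8 against 0.405 in the spleen control, and its partner Rag2 was 17.0 and 8.93. Vpreb2, a surrogate light chain gene whose reads may be shared with its near-identical copy Vpreb1, was 95.8 and 42.4. Ly6d, which marks B-biased lymphoid progenitors, was the one gene of the list with the larger level in HSC, at 191 against 159. Of 17 genes of recombination and receptor assembly, 2 were higher in CLP, Rag1 and Vpreb2, with a median of -0.63. Dntt, the terminal transferase that adds bases at the joins, was 773 and 416 FPKM. End-joining genes lay closer, with Prkdc at 4.08 and 3.88 and Xrcc6 at 55.2 in CLP and 35.3 in HSC.

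The surrogate light chain is made by Vpreb1 and Igll1, which pair with the heavy chain in the pre-B cell receptor. Vpreb1 was 278 FPKM in CLP and 152 in HSC and Igll1 119 and 63.1, while the spleen control had 0.364 and 0. Neither reached 2-fold. The 250 bases before their RefSeq starts are shown because these genes lie close together on chromosome 16 and had like log2 differences (-0.87 and -0.91), with a window of Procr, a gene of the opposite direction. In GENCODE M21 the coding transcripts of Vpreb1 and Igll1 begin at 16869255 and 16863985, next to these windows. Non-coding transcripts of Vpreb1 in GENCODE begin farther out, at 16870843, so that its window lies inside the gene as annotated there. For Procr the 100 bases that fall past the GENCODE start at 155751117 were left out, which leaves 150. The sequences are from RefSeq on GRCm38.p6, 5′ to 3′ on the strand of each gene, and capitals mark matches on either strand to 5 motifs: the EBF core CCCNNGGG, the E-box CAGGTG, the Runx motif TGTGGT, the GATA motif AGATAA and the ETS motif GGAAGT.
Vpreb1, chr16:16869256-16869505, minus strand: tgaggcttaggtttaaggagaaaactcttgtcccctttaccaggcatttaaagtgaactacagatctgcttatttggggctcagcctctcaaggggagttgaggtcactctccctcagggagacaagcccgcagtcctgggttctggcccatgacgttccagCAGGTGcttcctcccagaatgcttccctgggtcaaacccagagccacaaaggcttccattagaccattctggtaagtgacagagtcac
Igll1, chr16:16863986-16864235, minus strand: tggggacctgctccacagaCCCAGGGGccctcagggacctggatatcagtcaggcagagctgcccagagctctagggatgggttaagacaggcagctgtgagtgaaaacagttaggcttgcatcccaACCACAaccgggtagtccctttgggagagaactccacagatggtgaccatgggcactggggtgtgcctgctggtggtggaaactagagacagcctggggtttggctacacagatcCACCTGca
Procr, chr2:155750967-155751116, plus strand: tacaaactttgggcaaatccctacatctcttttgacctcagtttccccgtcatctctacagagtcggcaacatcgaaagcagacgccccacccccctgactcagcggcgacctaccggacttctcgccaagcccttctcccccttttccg
Vpreb1 held 1 match, an E-box at -88 to -83 from the start. Igll1 held 3, the EBF core at -231 to -224, the Runx motif at -123 to -118 and an E-box at -8 to -3, and Procr held 0. Of the 13 of 20 early B genes with a window, 6 (46.2%) held the E-box and 1 (7.69%) the EBF core, against 17.3% and 17.9% of 8864 windows over all genes. The Runx motif was in 4 of them (30.8%, against 13.2%), the ETS motif in 6 (46.2%, against 28.6%) and the GATA motif in 0 (against 7.27%). Among genes at least 4-fold apart with 5 FPKM or more, 9 of 38 toward HSC and 2 of 15 toward CLP had a window, too few to give a share. A match is no more than these letters in this window.

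Immunoglobulin genes split the columns in a way the early B genes did not. Igkc, the kappa light chain constant gene (chromosome 6, 70726435 to 70726966), was 1058 FPKM in HSC, 242 in CLP and 4381 in the spleen control. Jchain, the joining chain of secreted antibody, was 54.9 and 10.8. Of 160 kappa variable segments, 72 passed 1 FPKM, 42 were at least 2-fold higher in HSC and 2 in CLP, with a median of 1.30 and summed levels of 1024 and 290.0 FPKM. Segments could pass the filter through HSC alone, the column where they are high, so this count and median are no separate support. Of the 160, 82 were listed at 0 in CLP and 64 in HSC. Without the filter the median was 0.72 over the 99 segments above 0 in either column. Segments share sequence, so reads may be split among them. Of 11 immunoglobulin constant genes with Jchain, 2 were higher in HSC and 1, Ighg2b, in CLP. Ighm, the mu heavy chain, was level at 772 in HSC and 881 in CLP. Of 94 heavy chain variable segments past 1 FPKM, 16 were higher in HSC and 13 in CLP. These immunoglobulin lists were chosen after their values were seen. Among 12 mature B and plasma cell markers 11 passed, 2 were higher in HSC, H2-Aa and Jchain, and the median was -0.23, with 8 of 11 below 0. Summed levels were 295 in HSC and 181 in CLP against 2412 in the spleen control, and 88.6, 105 and 1403 without H2-Aa and Jchain. The part of such cells in these values was not tested.

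MHC class II genes were higher in HSC in 4 of 10 cases and in none in CLP, with a median of 0.65. H2-Aa was 151 and 65.2 FPKM, H2-Ab1 219 and 94.6, H2-Eb1 201 and 86.6, and H2-DMb1, a peptide loading chaperone, 31.0 and 13.8. Ciita, the activator of class II transcription, was 2.82 and 2.22.

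T lineage genes were low in both columns, and the few NK genes that differed by 2-fold were higher in HSC. Of 19 early T genes, 14 passed 1 FPKM and none differed by 2-fold, with Tcf7, a Notch-induced factor, at 7.69 in HSC and 6.61 in CLP. Of 12 mature T cell markers 10 passed and 2 were higher in CLP, the receptor constant gene Trac (3.92 in CLP and 0.797 in HSC) and the coreceptor gene Cd8b1 (2.44 and 0.427), with summed levels of 38.5 in CLP and 22.8 in HSC against 1166 in the spleen control. Both passed the filter through CLP alone. Of 18 Notch pathway genes 11 passed and none differed by 2-fold. Of 17 NK and innate lymphoid genes 16 passed and 3 were higher in HSC: the granzyme Gzma (19.4 and 6.02), Zbtb16, the PLZF factor (2.60 and 0.441), and Nkg7. Zbtb16 passed the filter through HSC alone. Among the 14 genes with at least 1 FPKM in both columns 2 were higher in HSC, with a median of 0.18. Id2, which restrains E proteins and favours innate lymphoid fates, was 49.6 in CLP and 26.2 in HSC. Of 8 NK cell markers 2 were higher in HSC, Gzma and the receptor Klra8 (2.79 and 0.693), with summed levels of 42.0 in HSC, 23.1 in CLP and 217 in the spleen control. Klra8 passed the filter through HSC alone, and of the 5 markers with at least 1 FPKM in both columns 1 was higher in HSC. Of the E proteins and Id factors, Id1 alone passed 2-fold, at 7.71 in HSC and 3.34 in CLP. None of 12 plasmacytoid and dendritic genes past 1 FPKM differed by 2-fold, and Siglech, a receptor of plasmacytoid cells, was 7.18 and 10.8.

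Genes of dividing cells were somewhat higher in CLP. All 18 mitosis genes lay below 0, with a median of -0.51, and 15 of 18 DNA replication genes did, with a median of -0.33, and none in either list reached 2-fold. Mki67, the proliferation antigen, was 203 FPKM in CLP and 122 in HSC, against 7.10 in the spleen control. The cyclin Ccnb1 was 33.3 and 17.4, and Pcna, the replication clamp, was 263 and 174. Of 68 clustered histone genes, chosen after values were seen and with near-identical copies, 59 passed, 7 were higher in CLP and 1 in HSC. Cell cycle inhibitors and quiescence genes had a median of 0.13, with Foxo1 alone past 2-fold, and the inhibitor Cdkn1b was 28.7 in HSC and 17.8 in CLP. All 20 immediate early genes lay above 0, with a median of 0.65: Egr1 was 169 and 57.4, Ier2 280.0 and 124, and Fos 668 and 647. Such genes also respond to the handling of cells, whose part was not tested.

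**Figure D3:**
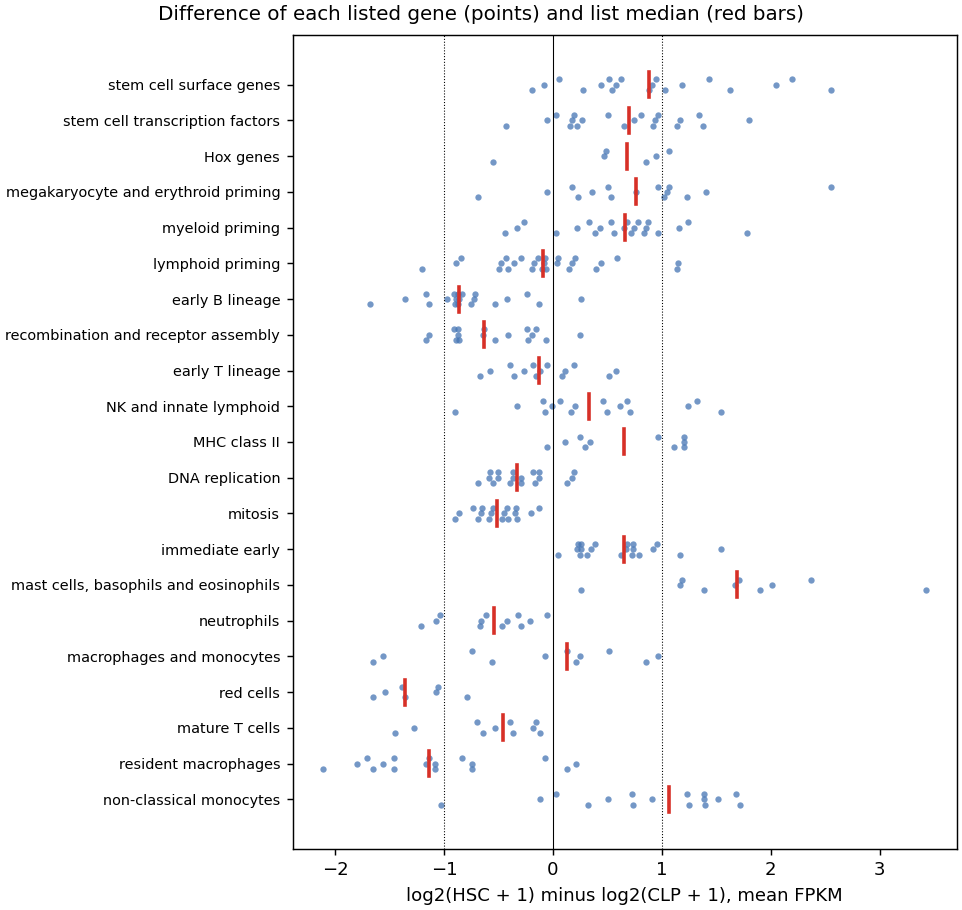
Log2 difference of each gene past 1 FPKM (points) in 21 gene lists, with the list median as a red bar; dotted lines mark 2-fold. Stem cell and megakaryocyte lists lie to the right (higher in HSC), early B and mitosis lists to the left, and the mast cell, basophil and eosinophil markers lie farthest right by median among the lists drawn.

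Markers of other cell types differed as well. Of 12 mast cell, basophil and eosinophil markers, 10 passed 1 FPKM, 9 were at least 2-fold higher in HSC and none in CLP, with a median of 1.69. Of the 8 with at least 1 FPKM in both columns, 7 were higher in HSC. Mcpt8, the basophil protease (ENSMUSG00000022157, chromosome 14, 56082166 to 56085273), was 539 FPKM in HSC, 49.0 in CLP and 0.150 in the spleen control. Prss34, another basophil protease, was 756 and 145, the carboxypeptidase Cpa3 84.5 and 21.9, the IgE receptor chain Fcer1a 26.8 and 7.51, and the eosinophil peroxidase Epx 3.45 and 0.106. The mast cell protease Mcpt4 was 0.0507 and 0, and the tryptase Tpsb2 0 and 0.0675. Summed levels were 1494 in HSC, 255 in CLP and 3.48 in the spleen control. Gata2 stands in this list too, and the part of such cells in its value was not tested.

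Neutrophil markers were high in both columns. Of 12, all passed, 3 were higher in CLP and none in HSC, with a median of -0.54, and they held 2.97% of all FPKM in HSC and 4.19% in CLP against 0.222% in the spleen control. S100a9 was 5728 and 7171 FPKM. Retnlg, a gene of mature neutrophils, was 167 in CLP and 72.0 in HSC, and the metalloproteinases Mmp8 (49.8 and 23.2) and Mmp9 (45.8 and 21.7) were the other two. Of 12 late neutrophil genes, chosen after values were seen, 8 were higher in CLP and none in HSC, with a median of -1.08. Mpo and Elane, genes of earlier granulocyte stages, had their larger level in HSC. The part of neutrophils in the other myeloid values was not tested.

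Macrophage and monocyte genes differed in both directions. Of 12 markers 11 passed 1 FPKM and 2, Vcam1 and Mrc1, were higher in CLP, with a median of 0.13 and summed levels of 391 in HSC and 382 in CLP against 67.5 in the spleen control. Of 17 genes of resident macrophages, chosen after values were seen, 11 were at least 2-fold higher in CLP and none in HSC, with a median of -1.14 and summed levels of 298 in HSC and 538 in CLP. Mertk, a receptor for the uptake of dead cells, was 11.9 in CLP and 1.99 in HSC, Vcam1 61.3 and 20.2, Spic, the factor of iron-recycling macrophages, 12.9 and 2.99, and the iron exporter Slc40a1 22.9 and 6.33. C1qa, a complement gene, was level at 43.3 and 50.3. Of 16 genes of non-classical monocytes, chosen likewise, 8 were higher in HSC and 1 in CLP, with a median of 1.07: the lectin Clec4a3 was 49.0 and 18.1, the receptor Cd300e 10.5 and 2.49, and the Fc receptor Fcgr4 55.5 and 20.5.

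Red cell genes were higher in CLP. Of 9 with a value, 7 passed 1 FPKM and 6 were higher in CLP, with a median of -1.36. Hba-a1, an alpha-globin gene whose reads may be shared with its copy Hba-a2, was 433 FPKM in CLP and 166 in HSC, and the beta-globin gene Hbb-bs was 217 and 103. Summed levels were 1260.0 in CLP, 496 in HSC and 226 in the spleen control. Of 12 stromal and endothelial markers 4 passed and 1, Vcam1, was higher in CLP. Ribosomal RNA of mitochondria moved the same way: mt-Rnr2 was 4389 in CLP and 1097 in HSC, while the mitochondrial messenger mt-Co1 was 6807 and 8339. The non-coding gene AY036118 was 725 in CLP, 0.281 in HSC and 895 in the spleen control. The part of RNA selection in these values was not tested.

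Outside the 32 lists chosen first, the genes with the largest differences were named by rule, for protein-coding genes of at least 5 FPKM in the higher column. Toward HSC these included the protease inhibitor Ctla2a (55.8 and 7.2 FPKM), Myct1 (8.62 and 0.622), Apoe, the lipid carrier apolipoprotein E (117 and 22.7), the small GTPase Rab38 (14.9 and 2.22), the mucin Muc13 (30.5 and 5.87) and Angpt1, the ligand of Tek (30.4 and 6.29). Angpt1 thus stood well above its receptor Tek, at 1.02 FPKM in HSC and 0.0757 in CLP. The first by this rule, Hist2h2aa1, at 11.2 and 0.0354, has near-identical copies and is uncertain. It is also the clustered histone gene counted above as higher in HSC. The rule did not pass over the lists chosen after values were seen. Toward CLP it thus also reached Mertk, Spic and Slc40a1, given above among the resident macrophage genes. Toward CLP the rule named Lpl, lipoprotein lipase (23.4 in CLP and 4.41 in HSC), the organic anion transporter Slco2b1 (9.59 and 1.66), the growth factor Igf1 (6.22 and 1.11), the nuclear pore gene Nup62 (57.7 and 15.7), the peroxidase Gpx1 (124 and 38.3) and the eotaxin receptor Ccr3 (20.8 and 6.56). Ccr3, a receptor of eosinophils and basophils, was higher in CLP although the basophil proteases were higher in HSC.

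Several groups hardly differed. Of 18 interferon-stimulated genes 1 was higher in HSC, Ifitm1, a membrane protein also found in stem cells, at 104 and 23.0 FPKM, while Isg15 was 29.6 and 30.2. None of 18 glycolysis genes differed by 2-fold, with a median of 0.10, and Gapdh was 189 and 191. Of 16 homing and adhesion genes 1, Vcam1, was higher in CLP, and the chemokine receptor Cxcr4 was 165 in HSC and 98.9 in CLP.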

How the data were processed

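RNA was sequenced from sorted cells with TruSeq libraries, per the labels' protocols. The build was mm10, per the submitters' processing notes. The sources used here do not name the aligner, the counter or the gene models. As deposited, the file has 1 FPKM column per group, which the authors made as the mean of 2 samples, so no test across samples could be made. Of 49588 lines, 2 without a gene name and 3 identical repeats were left out, and 49324 of 49583 genes had an entry in GENCODE M21 (GRCm38), the source of symbols and coordinates. Python 3.11.15, pandas 2.3.3 and NumPy 2.4.6 were used. Genes with at least 1 FPKM in HSC or CLP were kept and compared as log2(FPKM + 1), with a call at a log2 difference of 1. Changes of at least 4-fold, put without noise into well expressed genes of a copied CLP column, were used to check the calculation alone. That check says nothing of calls near 2-fold, of genes near 1 FPKM or of sampling noise. The HSC, CLP and control columns share 1 number format, and the other 4 columns were not compared with them.

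The members, the 32 gene lists and the named genes were chosen with earlier results of these data known, and 7 further lists after these values were seen. Named genes were any list member and, per direction, 15 protein-coding genes of at least 5 FPKM with the largest difference. Depth was read from recurring steps of low values in genes with 1 transcript, sought within a preset range that limits the depths it can return. If a step were 1 read of a pair, the fragments would be fewer than given. Promoters were taken for genes with a RefSeq entry, and that of Mecom, under 1 FPKM in both columns, is not shown. The alternatives were pseudocounts of 0.1 and 5, a filter of 5 FPKM or none, 3 other scalings and protein-coding genes alone. Some listed genes are not reported here by name.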

Additional observations from a re-analysis of the deposited data

How the results depend on the processing

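The count of genes at least 2-fold higher was 423 in HSC and 336 in CLP as reported. It was 790 and 699 with a pseudocount of 0.1, 110 and 66 with a pseudocount of 5, 214 and 155 with a filter of 5 FPKM, and 207 and 120 over protein-coding genes alone. Over protein-coding genes 63.3% of the called genes were higher in HSC, against 55.7% in all and 61.2% with median-of-ratios scaling. The median of the stem cell surface genes was 0.27 with a pseudocount of 5, that of the kappa variable segments 0.59 with a pseudocount of 5, that of the heavy chain variable segments 0.57 with a filter of 5 FPKM, and the immunoglobulin constant list came to 2.24 over protein-coding genes alone, which is Jchain by itself. Of 39 list medians, 34 kept their sign under all 8 alternatives and the kappa variable segments under the 7 that gave them a median, with none left among protein-coding genes. The early T, Notch, stroma and heavy chain variable lists did not keep it. Of 104 genes followed across settings, none of those at least 2-fold apart changed direction. With a pseudocount of 5, 32 of them fell under 2-fold. The pseudocount, the filter and the choice of gene types cannot turn the direction of a gene. Only the other scalings could, and they moved the median of all genes from -0.04 to 0.00, -0.02 and -0.05. Shifts of that size are far short of 2-fold, so the kept direction is no separate support. Mmp9, at -0.99 with median-of-ratios scaling, and Id1, at 0.99 with totals that leave out mitochondrial, ribosomal protein, globin and pseudogene rows, lay just under 2-fold. Fewer genes were tested with the filter of 5 FPKM and among protein-coding genes, and the shares called were lower too. They were 2.55% in HSC and 1.84% in CLP with the filter and 1.92% and 1.11% among protein-coding genes, against 3.09% and 2.45% as reported. The cause of the changes under any setting was not tested. Depth limits the genes near 1 FPKM, such as Procr, Tek and Fgd5. No paired analysis was possible because each column is a mean of 2 samples, and for the same reason no sample could be left out.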
